A study of Mus musculus with 14 samples.

Results

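F-box protein genes were examined in RNA sequencing libraries of mouse 2-cell embryos. The members were chosen by name, as every gene of the count table called Fbxl, Fbxo or Fbxw with a number, which gave 78 of 56923 genes. Of these, 16 form the oocyte group, Fbxw13 to Fbxw28, and 62 are the other F-box genes, with 18 Fbxl, 36 Fbxo and 8 Fbxw genes. The study asked what lactate does for zygotic genome activation, and its 14 libraries, of 5 embryos each, fall into 7 groups of 2. Embryos came from ICR mice 6 to 8 weeks old and were cultured to the early 2-cell stage (30 h after the injection of human chorionic gonadotropin, hCG) or the late 2-cell stage (54 h). G&N embryos were kept in mKSOM, an embryo culture medium, with 10 mM lactate, Gne140 at 5 µM and NMN at 50 µM, and G&N-L embryos in the same medium without lactate. Gne140 inhibits lactate dehydrogenase, the enzyme that makes lactate from pyruvate, and NMN is a precursor of NAD. Both groups were sampled at both stages. The study deprived embryos of lactate from 24 h after hCG, so early G&N-L embryos had spent less time without it than late ones. At the late 2-cell stage there were also G&N-L embryos injected with lactyl-coenzyme A (Lac-CoA, 1 mM), the donor for histone lactylation, and zygotes injected with mRNA for histone H3 of the normal sequence (WT) or with lysine 18 replaced by arginine (H3K18R). The treatment labels of the early libraries differ from their titles, which were followed here: they give Gne140 and NMN for early G&N-L with no word on lactate, and Gne140 alone for early G&N. The mutant count columns name another substitution at lysine 18 than the titles do, and the titles were followed. The treatment label of the Lac-CoA libraries reads CoA and their titles only +A, and it was from the methods of the study that the injected compound was taken to be Lac-CoA.

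F-box proteins are the interchangeable part of SCF ubiquitin ligases. Skp1 ties the F-box to the cullin Cul1, Cul1 holds the RING protein Rbx1 and its ubiquitin-loaded enzyme, and the rest of the F-box protein, WD40 repeats in Fbxw, leucine-rich repeats in Fbxl and other folds in Fbxo, picks the protein to be marked for degradation. Eggs and early embryos rely on protein and RNA clearance while the genome is silent. Most of the Fbxw13 to Fbxw28 genes of the mouse are known as genes transcribed in oocytes whose RNA is handed to the embryo.

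Of the oocyte group, 15 genes lay side by side on chromosome 9 (chr9:108968515-109619738, GRCm39, 651.2 kb), all on the minus strand, and they are called the cluster here. Of these, 14 are annotated as protein-coding and Fbxw23 as a transcribed unprocessed pseudogene, and the span held no other protein-coding gene. Fbxw17, the remaining member by name, lies on chromosome 13. The canonical transcripts of the cluster were similar to each other, with 79.7% to 99.1% identity within the aligned stretches of 105 pairs (median 84.5%). Fbxw14 and Fbxw28 formed the closest pair at 99.1%. Only 72.0% of the 100-base windows of Fbxw14 and 65.9% of those of Fbxw28 occurred in no other cluster transcript, so their counts could not be fully told apart, while for the other 13 genes the share was 94.4% or more. The coding sequences ran from 1296 to 1407 bases, or 432 to 469 residues.

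Most promoters of the cluster were near copies of each other. In the 250 bases before the annotated start, 14 of the 15 promoters were 84.5% to 97.2% identical to each other within the aligned stretch (median 91.9%). That stretch covered at least 84.8% of the window. The window of Fbxw23, which aligned with the others over short stretches only, was left out. The 120 bases before the start are shown for the gene with the highest level (Fbxw24), the near-identical pair (Fbxw28 and Fbxw14), the gene with the largest fall (Fbxw20), Fbxw21 and Fbxw23, all 5′ to 3′ on the minus strand of chromosome 9 in GRCm39. Fbxw21 is shown for its changed motif and Fbxw23 as the one unlike the rest. Capitals mark the E-box form CAGCTG and, closer to the start, the letters CAATCC, which read TAATCC in Fbxw21. Fbxw23 held none of them in this window.
Fbxw24, chr9:109455126-109455245: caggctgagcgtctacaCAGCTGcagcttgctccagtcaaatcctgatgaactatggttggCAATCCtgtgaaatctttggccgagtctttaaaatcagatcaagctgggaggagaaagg
Fbxw28, chr9:109168728-109168847: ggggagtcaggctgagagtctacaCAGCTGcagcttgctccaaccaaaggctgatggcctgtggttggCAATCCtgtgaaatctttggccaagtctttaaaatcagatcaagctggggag
Fbxw14, chr9:109116745-109116864: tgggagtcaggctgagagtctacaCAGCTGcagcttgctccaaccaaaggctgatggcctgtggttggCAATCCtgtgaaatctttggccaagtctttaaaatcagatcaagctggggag
Fbxw20, chr9:109063823-109063942: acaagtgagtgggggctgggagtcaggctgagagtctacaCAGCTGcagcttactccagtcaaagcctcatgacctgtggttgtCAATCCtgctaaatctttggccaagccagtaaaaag
Fbxw21, chr9:108991110-108991229: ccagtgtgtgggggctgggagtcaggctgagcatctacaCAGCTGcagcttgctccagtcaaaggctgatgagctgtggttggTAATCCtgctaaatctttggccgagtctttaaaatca
Fbxw23, chr9:109363113-109363232: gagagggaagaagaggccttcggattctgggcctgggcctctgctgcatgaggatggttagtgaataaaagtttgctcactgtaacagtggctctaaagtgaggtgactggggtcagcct

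Motifs were searched on both strands of the 250 bases. The E-box CANNTG, bound by basic helix-loop-helix factors, was in 15 of 15 cluster promoters and in 64.8% of 21755 other promoters. TAATTG was in 0 of 15 against 7.48%, TATAAA in 0 of 15 against 11.9%, and TAATCC in 1 of 15, that of Fbxw21, against 7.001%. Letters picked after the promoters had been read were the E-box form CAGCTG, in 14 of 15 against 11.8%, CAATCC, in 13 against 9.53%, and TTTAAA, in 14 against 11.9%. Most of the promoters are near copies of each other, so they are not 15 separate observations. A run of 28 bases was common to 12 of the promoters and the run AAATCTTTGG to 14, with 9 of the 21755 other promoters holding the shorter one.

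Reads of the oocyte group were among the most abundant in the early 2-cell embryo. Library totals ran from 20350427 to 61275465 counts. Before any normalisation the 16 genes took 3.68% and 3.55% of all counts in early G&N-L embryos and 2.61% and 3.04% in early G&N embryos. In the 10 late libraries the share was 0.266% to 0.623%. The 62 other F-box genes together took 0.184% to 0.223% in early and 0.237% to 0.306% in late libraries. Of all F-box reads, the oocyte group thus gave 92.1% to 95.2% at the early stage and 46.5% to 72.4% at the late stage. Levels below are CPM, counts scaled to a common library size, after TMM scaling over the 14 libraries, and levels compared between genes are CPM per kilobase of exon.

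Level differed widely within the cluster. Per kilobase, the early 2-cell mean was highest for Fbxw24, at 8787 CPM per kilobase, which ranked 3 among 26603 genes with a level above 0. Fbxw28 followed at 3670, rank 17, and Fbxw14 at 2932, rank 23. At the low end Fbxw21 was at 204 (rank 246), Fbxw23 at 153 (rank 324) and Fbxw13 at 27.6 (rank 1427). Fbxw17 had 0 to 165 counts and was at 0 in 10 of the 14 libraries, so little can be read from its level. The 10 other annotated genes of the count table that lie inside the span, small nuclear RNAs, long non-coding RNAs, a processed pseudogene and transcripts yet to be experimentally checked, stayed at or below 3.91 CPM in every library, with 4 of them at 0 throughout.

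**Figure D1:**
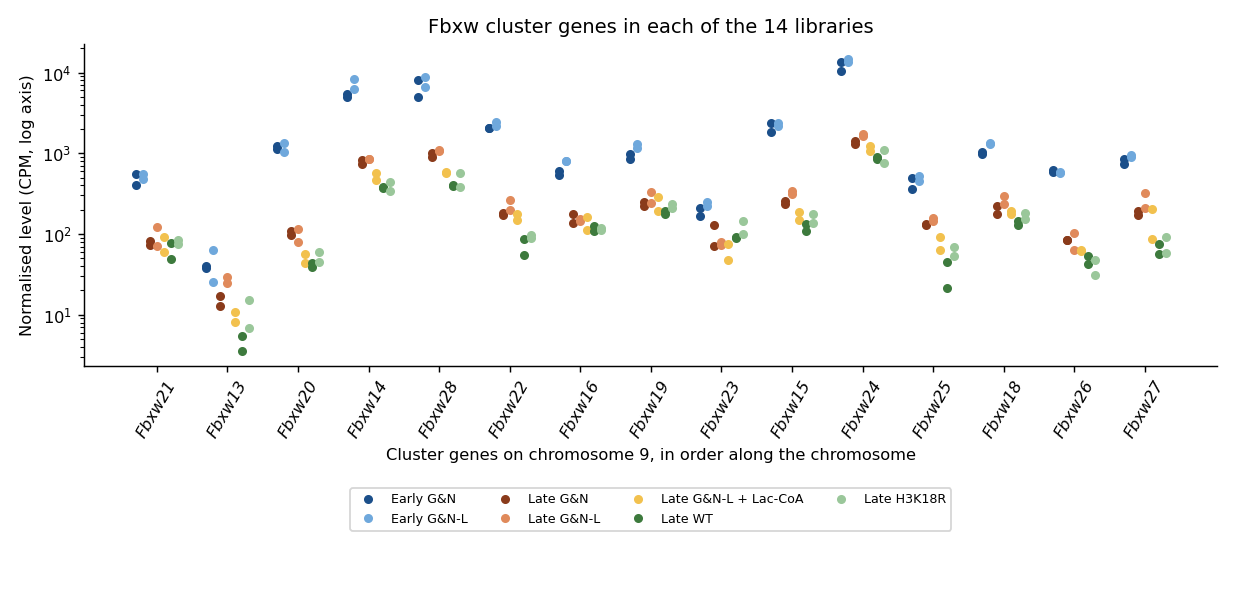
Level of each of the 15 cluster genes in each of the 14 libraries, as CPM after TMM scaling on a log axis, with genes in their order along chromosome 9 and 1 point for each library coloured by group. For 14 of the 15 genes every early point lies above every late point, and in Fbxw13 the stages overlap.

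Between the early and the late 2-cell stage the cluster fell as a block. In early G&N embryos Fbxw24 was at 10409 and 13448 CPM and in late G&N embryos at 1293 and 1436.2 CPM. Without lactate it went from 14877 and 13565 to 1649 and 1729.9 CPM. All 4 early libraries thus stood far above the late ones, and over the 8 libraries of the 2 media the log2 fold change was −3.22 ± 0.16 (SE), which is 9.29-fold (adjusted p = 7.05e-06, edgeR quasi-likelihood test with Benjamini-Hochberg adjustment over all genes). Fbxw28 was at 4999 and 8184 CPM in early G&N and 906 and 1009 CPM in late G&N, and at 8784 and 6677 CPM in early G&N-L against 1058 and 1091 CPM in late G&N-L. Its log2 fold change was −2.93 ± 0.21. Fbxw20 was the cluster gene that fell most, from 1239 and 1129 CPM to 109 and 97.3 CPM in G&N and from 1342 and 1033 CPM to 116 and 80.5 CPM in G&N-L, a change of −3.66 ± 0.18 on the log2 scale, or 12.6-fold. Fbxw22 was close to it, with 2073 and 2075 CPM against 179.6 and 173 CPM in G&N and 2452 and 2167 CPM against 198 and 265 CPM in G&N-L (−3.54 ± 0.15).

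The smallest falls in the cluster were those of Fbxw23 and Fbxw13. The pseudogene Fbxw23 was at 165 to 250.01 CPM in the 4 early libraries and 70.4 to 128 CPM in the late G&N and G&N-L libraries, a log2 fold change of −1.39 ± 0.25 (adjusted p = 0.00397, edgeR). Fbxw13 was at 25.4 to 63.9 CPM against 12.7 to 29.0 CPM (−1.15 ± 0.31, adjusted p = 0.0244, edgeR), and it was the only cluster gene whose early and late values overlapped in these 8 libraries. Its call was lost when any of 4 libraries was left out. Fbxw25 (−1.79 ± 0.14), Fbxw27 (−2.06 ± 0.17), Fbxw19 (−2.13 ± 0.16) and Fbxw16 (−2.26 ± 0.18) lay between, followed by Fbxw18 (−2.43 ± 0.15), Fbxw21 (−2.63 ± 0.20), Fbxw26 (−2.93 ± 0.19), Fbxw14 (−3.01 ± 0.16) and Fbxw15 (−3.04 ± 0.14).

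In all, 15 of 16 oocyte-group genes were called lower late than early over the 8 libraries, where 10.9% of the 22287 genes tested were called lower and 13.6% higher. The cluster median was −2.63 on the log2 scale, against 0.12 over all genes tested. The cluster genes are related neighbours measured in the same libraries, so here and below they are not separate observations. The gene not called was Fbxw17 (adjusted p = 0.0524, edgeR). It had 0 counts in the 4 late libraries, and 8 and 122 counts in early G&N-L and 165 and 0 in early G&N. The size of its change cannot be read from these counts. In G&N embryos alone 13 of 15 genes tested were called lower, where 5.47% of all genes were lower and 8.18% higher, with a median of −2.69. In G&N-L embryos 14 of 15 were called lower, where 5.87% of all genes were lower and 5.97% higher, with a median of −2.49. Leaving out replicate 1 or replicate 2 of late G&N took the F-box genes called in that comparison from 20 to 2 and 3. Calls among all genes in those fits are not given here, so the drop cannot be read as particular to F-box genes. In bulk embryos fewer cells with a transcript and less RNA per cell cannot be told apart, and total RNA per embryo was not measured here. Without TMM scaling the median of all genes over the 8 libraries moved from 0.12 to 0.53 and that of the oocyte group from −2.78 to −2.36. Transcripts of 13 other maternal genes summed to 19150 to 25650 CPM in early and 9622 to 15210 CPM in late G&N and G&N-L libraries. Of these, 8 of 13 were called lower and 0 higher, with a median of −0.95. The oocyte growth factor genes Gdf9 and Bmp15 were among the 8. The zona pellucida genes Zp1 (−0.07), Zp2 (−0.27) and Zp3 (0.14) did not pass the test. Btg4 was the largest part of this sum in every library, with 13050 to 17230 CPM in early and 7196 to 11750 CPM in late G&N and G&N-L libraries. The sums of these 13 genes given below are thus weighted towards it. Of 10 genes first transcribed in the 2-cell embryo, 7 were called higher, with a median of 4.34. Markers of cumulus and granulosa cells, 12 genes, summed to at most 35.1 CPM in any library, and Amh and Inhba among them were at 0 in all 14. Of 6 of these markers tested, Tnfaip6 was called higher and Has2 lower.

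**Figure D2:**
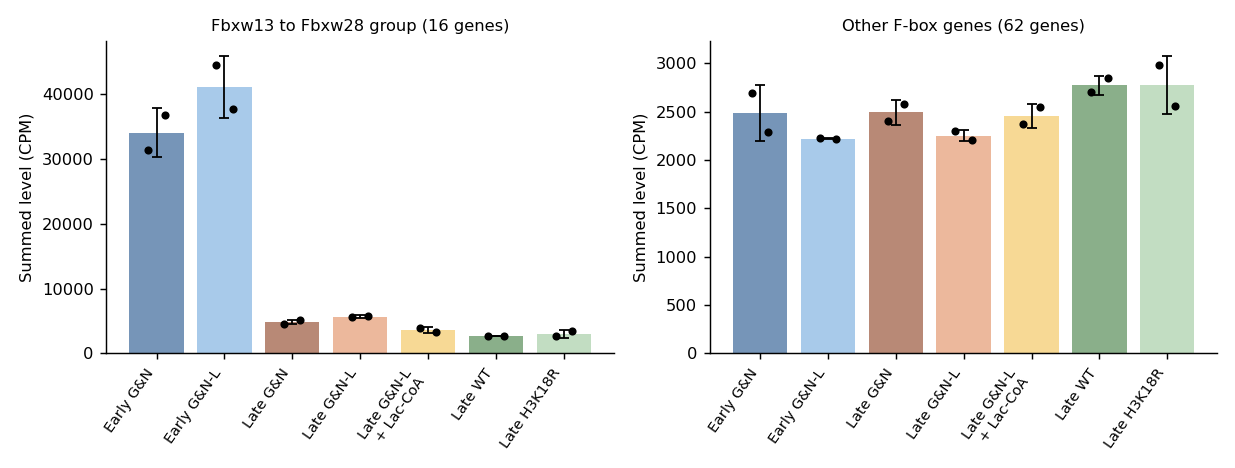
Summed level of the 16 oocyte-group genes and of the 62 other F-box genes by group, in CPM from 0. Bars show the mean of 2 libraries, error bars the SD and points the libraries. The oocyte group is at 31360 CPM or more in every early library and at 5803 CPM or less in every late one, while the other F-box genes stay between 2210.0 and 2985 CPM.

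The sum over the oocyte group was 34060 ± 3815 CPM (SD, n = 2) in early and 4815 ± 360.2 CPM in late G&N embryos, a 7.07-fold difference of the means, and 41120 ± 4742 and 5679 ± 175 CPM in G&N-L embryos, a 7.24-fold difference. With 2 libraries against 2, an exact permutation test on such a sum cannot give a two-sided p below 0.333. The interaction of stage and lactate, fitted over the 8 libraries, called 0 genes with edgeR (0% of 22287), and at an unadjusted p under 0.05 it took in 0 of 16 oocyte-group genes and 6 of 59 other F-box genes, against 7.55% of all genes. DESeq2 called 0 F-box genes there, where it called 0.965% of all genes. The median interaction of the oocyte group was −0.01 on the log2 scale, with −1.11 for Fbxw17 and −0.73 to 0.65 in the cluster. Outside the group the smallest p values were those of Fbxo7 (2.85 ± 0.81, adjusted p = 0.631, edgeR), Fbxo10, whose late G&N libraries were both at 0, and Fbxo33 (−1.57 ± 0.55).

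The other F-box genes did not move as a block with stage. Of 59 tested over the 8 libraries, 5 were called lower and 10 higher, against the 10.9% and 13.6% of all genes, and their median was 0.27. With library totals in place of TMM these calls became 2 lower and 14 higher, beside 14 lower in the oocyte group, where 6.39% of all genes were called lower and 18.2% higher. In G&N alone 3 were lower (Fbxo28, Fbxo7 and Fbxo25) and 4 higher (Fbxo15, Fbxo17, Fbxo47 and Fbxo33) of 54, and in G&N-L alone 3 were lower (Fbxo28, Fbxo34 and Fbxo40) and Fbxo15 was higher of 52. Against all genes, that is 5.56% lower where 5.47% were and 7.41% higher where 8.18% were in G&N, and 5.77% lower where 5.87% were and 1.92% higher where 5.97% were in G&N-L, so the lower calls stood near the background.

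**Figure D3:**
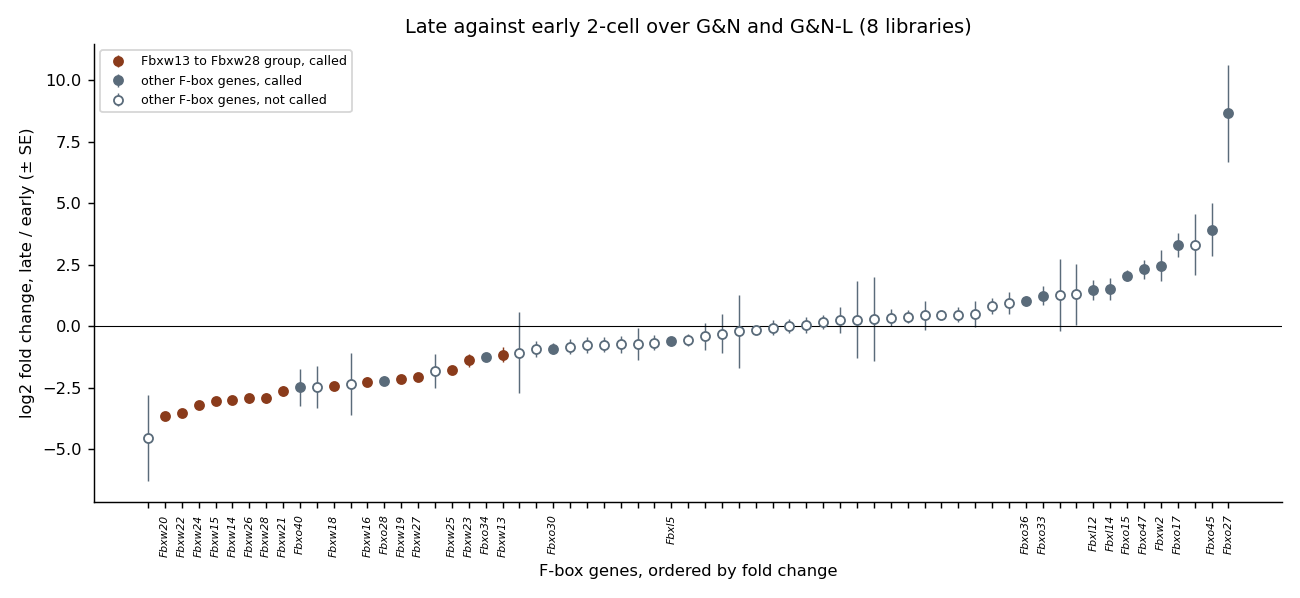
Log2 fold change from early to late 2-cell over G&N and G&N-L for 65 F-box genes, ordered by size, with standard errors of the edgeR fit. Filled points passed an adjusted p of 0.05 and are named on the axis; Fbxw17 and the 9 genes with a standard error of 2 or more are not drawn. The 15 cluster genes lie between −3.66 and −1.15, and the other F-box genes fall on both sides of 0. Fbxo27, with no early counts, is drawn at a fitted value that does not measure the size of its change.

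Of the genes that rose, Fbxo15, a marker of mouse embryonic stem cells, had the smallest p, and Fbxo45 (3.93 ± 1.09), Fbxo17, Fbxw2 (2.46 ± 0.63) and Fbxo47 had larger fitted changes. Fbxo15 was at 51.7 and 57.6 CPM in early G&N and 278 and 380 CPM in late G&N, and at 61.5 and 48.4 CPM in early G&N-L against 199.97 and 169 CPM in late G&N-L. No late value reached down to an early one, and the log2 fold change over the 8 libraries was 2.06 ± 0.23 (adjusted p = 0.000334, edgeR). Per kilobase it had the highest mean level of the 62 genes over the 14 libraries, 51.6 CPM per kilobase. Fbxo17, which belongs to the F-box subfamily that binds sugar chains on glycoproteins, was at 0.756 to 1.92 CPM in the 4 early libraries and rose to 16.8 and 31.2 CPM in late G&N and 4.53 and 7.62 CPM in late G&N-L (3.30 ± 0.50). Fbxo27, its neighbour on chromosome 7 and of the same subfamily, was at 0 in every early library. In the 4 late ones it was at 0.367 to 3.33 CPM. Their mean was at least 10.5-fold higher than 0.136 CPM, the level of 3 counts in the early library of lowest depth. Fbxo47, a gene with a role in meiosis, rose by 2.32 ± 0.39 and Fbxo36 by 1.04 ± 0.20 on the log2 scale. The calls for Fbxo45, Fbxw2, Fbxl12, Fbxl14 and Fbxo33 had adjusted p values of 0.0205 to 0.0438 (edgeR). Those for Fbxl12 and Fbxl14 held in only 2 of 8 fits with 1 library left out, and those for Fbxo33 and Fbxo27 in 7 of 8.

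Genes outside the cluster that fell were Fbxo28, Fbxo34, Fbxo30, Fbxl5 and Fbxo40. Fbxo28 was at 187 and 141 CPM in early G&N and 36.5 and 32.2 CPM in late G&N, and at 150.4 and 156 CPM in early against 34.9 and 43.5 CPM in late G&N-L, and its log2 fold change of −2.21 ± 0.17 had the smallest p outside the cluster (adjusted p = 4.89e-05, edgeR). Fbxo34 went from 219 to 313 CPM in early libraries to 102 to 153 CPM in the late ones of the same media (−1.27 ± 0.16). Fbxo30 changed by −0.92 ± 0.22 and Fbxl5, the iron sensor that sets the level of iron regulatory protein, by −0.62 ± 0.16. Fbxo40 changed by −2.49 ± 0.75 from a level of at most 21.6 CPM. The calls of Fbxo30, Fbxl5 and Fbxo40 were lost with library totals in place of TMM. With 1 library left out, the call of Fbxl5 held in 4 of 8 fits and that of Fbxo40 in 6 of 8.

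Fbxo5 and Fbxo43, the inhibitors of the anaphase-promoting complex known as Emi1 and Emi2, were both present. Fbxo5, the member that holds the complex off in dividing cells, was at 70.8 to 212 CPM in early and 102 to 233 CPM in the 10 late libraries, and the stages overlapped. Fbxo43, which keeps the mature egg arrested in meiosis, was at 87.6 to 135 CPM in early and 15.5 to 102 CPM in late libraries, with a log2 fold change over the 8 libraries of −0.93 ± 0.33 (adjusted p = 0.066, edgeR). Fbxo8, Fbxo11 and Fbxo36 were, with Fbxo15 and Fbxo5, the 5 highest of the other F-box genes per kilobase, at 30.9, 39.2 and 36.7 CPM per kilobase over the 14 libraries. Fbxo11, whose known targets include the repressor Bcl6, was at 159 to 215 CPM in early and 244 to 382 CPM in late libraries, so that the stages did not overlap, but its change over the 8 libraries (0.45 ± 0.18) did not pass the test (adjusted p = 0.0923, edgeR). Several F-box genes studied in somatic cells were low. Fbxw7, which targets cyclin E and Myc, had 3.53 to 20.1 CPM, Fbxw11, the second β-TrCP, 8.34 to 34.3 CPM, Fbxo7, a gene mutated in familial parkinsonism, 2.73 to 33.7 CPM, and Fbxw8, a partner of Cul7, at most 1.27 CPM.

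**Figure D4:**
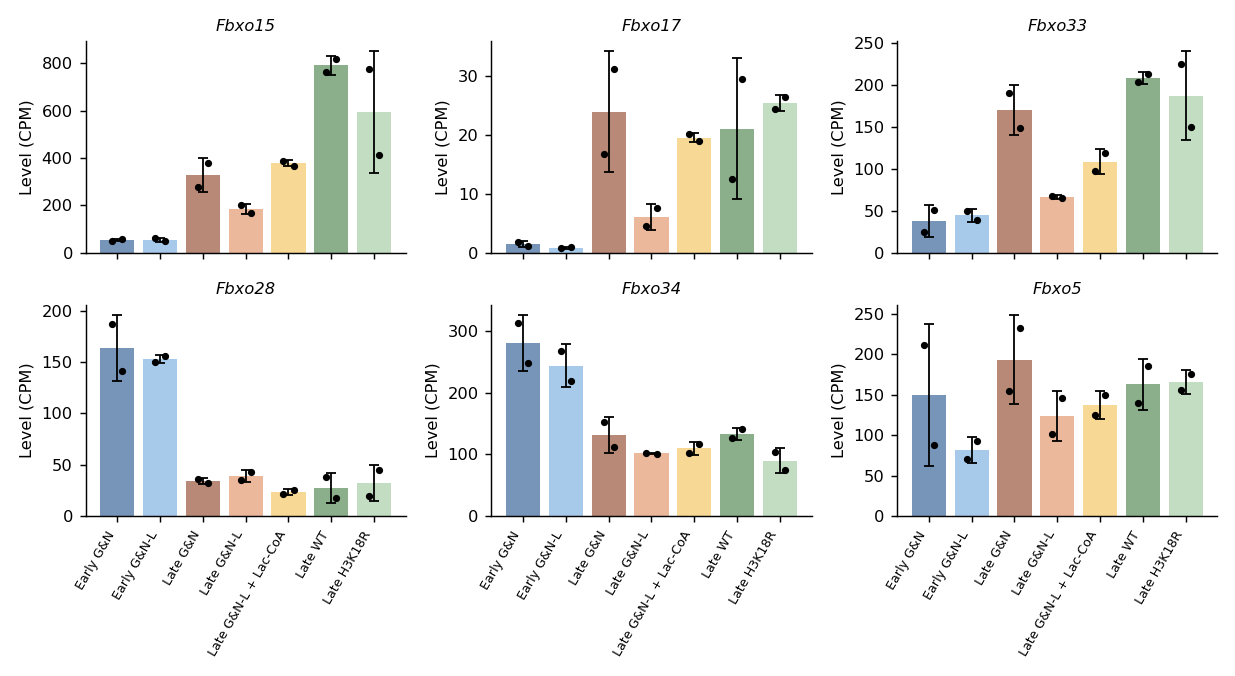
Level of Fbxo15, Fbxo17, Fbxo33, Fbxo28, Fbxo34 and Fbxo5 by group, in CPM from 0. Bars show the mean of 2 libraries, error bars the SD and points the libraries. Fbxo15, Fbxo17 and Fbxo33 are higher in all late groups than in the early ones, with late G&N-L below late G&N, Fbxo28 and Fbxo34 are lower in all late groups, and Fbxo5 overlaps between stages.

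The partners of F-box proteins were taken as lists of genes, to be read beside the 10.9% of all genes called lower, the 13.6% called higher and the median of 0.12. Of 4 SCF core genes tested over the 8 libraries, Skp1 and Rbx1 were lower (−1.70 ± 0.15 and −1.37 ± 0.21), Rnf7, the second RING subunit, was higher (2.06 ± 0.42), and Cul1 had −0.19 ± 0.19 (adjusted p = 0.508, edgeR). Of 11 genes for the attachment of Nedd8 to cullins and for exchange of F-box proteins, 5 were lower, Nae1, Uba3, Nedd8, Dcun1d4 and Dcun1d1, and Dcun1d5 was higher, with a median of −0.77. Of 10 genes of the COP9 signalosome, which removes Nedd8, 3 were lower (Cops8, Cops2 and Cops4) and 0 higher, with a median of −0.74. Of 10 ubiquitin-conjugating and partner ligase genes, Cdc34 and Ube2d2a were higher and 0 lower. Among 6 F-box proteins with other symbols, Btrc, the first β-TrCP, fell by 3.29 ± 0.23 on the log2 scale, from 102 to 161 CPM to 10.4 to 18 CPM, and Kdm2b was lower, while Skp2 (1.47 ± 0.36) and Kdm2a (1.99 ± 0.42) were higher. Of 7 other cullins, Cul3 was higher, Cul5 lower, and 5 did not pass the test.

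Removal of lactate was compared with its presence at each stage. At the late stage edgeR called 0 genes (0% of 19481). At an unadjusted p under 0.05, where 12% of all genes fell, there were 1 of 15 cluster genes and 7 of 55 other F-box genes, and DESeq2 called 2 F-box genes, neither in the cluster and both lower, where it called 4.56% of all genes. The cluster had a median of 0.34 on the log2 scale without lactate, against −0.02 over all genes, and 10 of 15 genes had both G&N-L libraries above both G&N libraries, which 20.2% of all genes did. These 15 genes are not separate observations. Fbxw24 was at 1649 and 1729.9 CPM against 1293 and 1436.2 CPM (0.36 ± 0.15, adjusted p = 0.444, edgeR), and the 13 other maternal transcripts, whose part in this was not tested, summed to 13450 and 15210 CPM against 9622 and 11120 CPM. Outside the cluster the 3 smallest p values were those of Fbxo33, Fbxo17 and Fbxo10. Fbxo33 was at 68.3 and 64.9 CPM without lactate and 191 and 149 CPM with it (−1.31 ± 0.25, adjusted p = 0.311, edgeR). Fbxo17 had a log2 fold change of −1.92 ± 0.52 (adjusted p = 0.332, edgeR). Fbxo10 had 52 and 39 counts without lactate and 0 in both libraries with it. Its mean without lactate was at least 14.4-fold higher than 0.0821 CPM, the level of 3 counts in the G&N library of lower depth. Fbxo15 was lower in both libraries without lactate (−0.78 ± 0.23, adjusted p = 0.332, edgeR).

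At the early stage edgeR also called 0 genes (0% of 17343). All 16 oocyte-group genes had a positive log2 fold change without lactate, with a median of 0.33 and a range in the cluster of 0.05 to 0.60, against −0.01 over all genes. For Fbxw17 (1.11 ± 2.33), with 8 and 122 counts against 165 and 0, little can be read from the sign. In 11 of 16 both G&N-L libraries were above both G&N libraries, which 16% of all genes were, and 4 of 16, with 2 of 51 other F-box genes, had an unadjusted p under 0.05, as 4.52% of all genes did. Those 4 were Fbxw19 (0.58 ± 0.16), Fbxw16 (0.60 ± 0.17), Fbxw18 (0.51 ± 0.17) and Fbxw14 (0.60 ± 0.20), and their adjusted p was 0.9999 (edgeR). Here the other maternal transcripts stood the other way, at 19150 and 21850 CPM without lactate and 23750 and 25650 CPM with it. DESeq2 called 0 F-box genes, where it called 0.202% of all genes. The smallest p values outside the group were those of Fbxw5 (−2.98 ± 1.04), Fbxo3 (0.76 ± 0.27) and Fbxo48 (3.75 ± 1.63), of which Fbxo48 had overlapping groups.

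**Figure D5:**
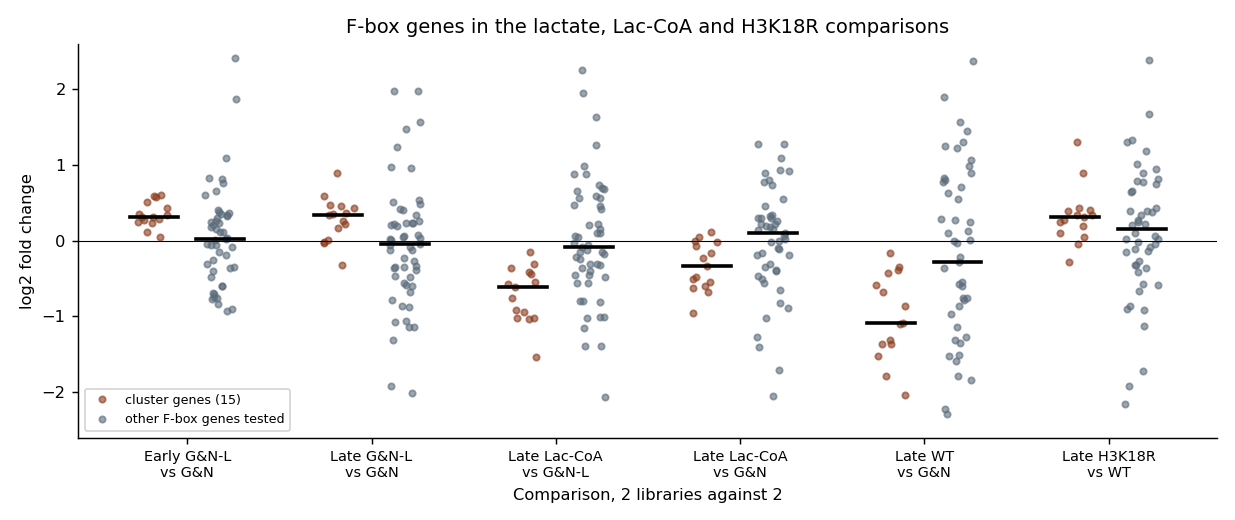
Log2 fold change of the 15 cluster genes and of the other F-box genes tested in 6 comparisons of 2 libraries against 2, with 1 point a gene and the median as a bar; 18 points of other F-box genes lie beyond the axis limit of 2.5. The cluster medians are 0.31 and 0.34 for removal of lactate at the early and late stage, −0.61 for Lac-CoA against G&N-L, −0.34 for Lac-CoA against G&N, −1.09 for WT against G&N and 0.31 for H3K18R against WT.

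Injection of Lac-CoA into lactate-deprived zygotes was compared with G&N-L at the late stage. The study describes no mock injection of G&N-L or G&N embryos, so Lac-CoA and the injection itself cannot be told apart against either group. With edgeR, 0 genes passed the adjusted test (0% of 19610). All 15 cluster genes had a negative log2 fold change, from −1.54 to −0.15 with a median of −0.61 against −0.01 over all genes. In 11 of 15 both Lac-CoA libraries were below both G&N-L libraries, which 23.5% of all genes were. The 15 genes are not separate observations. Fbxw28 was at 571 and 591 CPM with Lac-CoA and 1058 and 1091 CPM without (−0.94 ± 0.14, adjusted p = 0.294, edgeR). Fbxw15 was at 186 and 149 CPM against 316 and 345 CPM (−1.02 ± 0.20). At an unadjusted p under 0.05, where 13.3% of all genes fell, there were 8 of 15 cluster genes, all lower, and 4 of 53 others. DESeq2 called 8 F-box genes, 7 cluster genes lower and 1 other gene higher, where it called 5.95% of all genes. The summed oocyte group was 3625 ± 433 CPM with Lac-CoA and 5679 ± 175 CPM without, a 1.57-fold difference, and the other maternal transcripts were at 6914 and 10910 CPM against 13450 and 15210 CPM, so that both sums were lower in both libraries. The part of these transcripts in the cluster values was not tested. The genes of first transcription were at 4659 and 5284 CPM against 3060 and 3577 CPM.

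Outside the cluster Fbxo15 was at 387 and 368 CPM with Lac-CoA against 199.97 and 169 CPM without (0.98 ± 0.18, adjusted p = 0.294, edgeR), next to 278 and 380 CPM in late G&N. Fbxo17 was at 20.2 and 19.0 CPM against 4.53 and 7.62 CPM (1.64 ± 0.48) and Fbxo33 at 98.1 and 119 CPM against 68.3 and 64.9 CPM (0.65 ± 0.21). The Fbxo15 and Fbxo17 values with Lac-CoA lay within or beside the G&N range, and those of Fbxo33 stayed below both G&N libraries (191 and 149 CPM). These 3 genes were the ones with the smallest p values here, and the comparison with G&N-L shares its 2 control libraries with the late lactate comparison. Against late G&N directly, edgeR called 0 genes (0% of 19613), and 2 of 15 cluster genes and 2 of 55 other F-box genes had an unadjusted p under 0.05, against 8.51% of all genes. DESeq2 called 1 F-box gene, outside the cluster and higher, where it called 2.32% of all genes. The cluster median was −0.34, and 8 of 15 genes had both Lac-CoA libraries below both G&N libraries, which 19.2% of all genes did. The smallest p values outside the cluster were those of Fbxo10, Fbxo41, with 0 counts in both Lac-CoA libraries, and Fbxl13 (−3.11 ± 1.26). Fbxo10 had 0 counts in both G&N libraries. Its mean with Lac-CoA was at least 36.1-fold higher than 0.0821 CPM, the level of 3 counts in the G&N library of lower depth.

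Embryos injected with WT histone H3 were compared with late G&N embryos. These groups differ in both culture and injection, which cannot be told apart. Of 15 cluster genes 4 were called lower and 0 higher, where 2.68% of all genes were lower and 1.94% higher, and all 15 had a negative log2 fold change with a median of −1.09 against −0.16 over all genes. In 14 of 15 both WT libraries were below both G&N libraries, as for 33.3% of all genes. The 4 called were Fbxw28, at 402 and 395 CPM against 906 and 1009 CPM (−1.31 ± 0.17, adjusted p = 0.0413, edgeR), Fbxw14 (−1.10 ± 0.18), Fbxw27 (−1.52 ± 0.25) and Fbxw20 (−1.37 ± 0.24). Each of the 4 calls was lost when any 1 of the 4 libraries was left out. The summed group was 2632 ± 15.98 CPM in WT and 4815 ± 360.2 CPM in G&N, a 1.83-fold difference, and the other maternal transcripts were at 2024 and 2243 CPM against 9622 and 11120 CPM, and their part in the cluster values was not tested. Of the others, Fbxo15 alone was called, higher in WT at 762 and 819 CPM against 278 and 380 CPM (1.23 ± 0.21, adjusted p = 0.0463, edgeR), a call lost without any of 3 of the libraries.

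H3K18R was compared with WT, both as injected embryos. The 1 gene that edgeR called of 17704 (0.00565%) was no F-box gene. At an unadjusted p under 0.05, where 6.44% of all genes fell, there were 0 of 15 cluster genes and 6 of 50 other F-box genes, and DESeq2 called 0 F-box genes, where it called 0.61% of all genes. The cluster median was 0.31 against 0.03 over all genes, and in 8 of 15 genes both H3K18R libraries were above both WT libraries, which 19.6% of all genes were. Fbxw24 was at 766 and 1109.7 CPM against 851 and 906 CPM (0.10 ± 0.29), with the H3K18R libraries on either side of the WT ones. The 13 other maternal transcripts summed to 2148 and 5423 CPM in H3K18R against 2024 and 2243 CPM in WT, so that 1 of the H3K18R libraries had a higher sum than the other 3. Btg4 gave 1353 and 3859 CPM of these sums in H3K18R and 1299 and 1302 CPM in WT. Mos, Padi6 and Zp3 were not highest in that H3K18R library. Fbxo15 was at 774 and 412 CPM in H3K18R and 762 and 819 CPM in WT. The smallest p values outside the cluster were those of Fbxo21, with 79 and 53 counts against 1 and 0, Fbxo42, a regulator of p53, at 27.99 and 16.8 CPM against 6.48 and 7.53 CPM (1.68 ± 0.50, adjusted p = 0.734, edgeR), and Fbxo8 (0.90 ± 0.30).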

How the data were processed

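The authors trimmed reads with Trim Galore after FastQC, aligned them with HISAT2 to mm39 and counted them per gene with featureCounts; versions and the counting options for strand and for reads with several matches are not given in the sources used here. The deposited table holds raw counts, with 2 libraries a group here where the protocol states more. It also holds no column that could not be mapped to a sample.

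Genes passing filterByExpr were tested with edgeR 4.0.16 (quasi-likelihood test, TMM, R 4.3.3), each comparison on its own 4 libraries, the stage effect and the interaction on 8, with Benjamini-Hochberg adjustment over all genes tested and an adjusted p of 0.05 as threshold. SE is the fitted log2 fold change over the root of F. DESeq2 1.42.0 was an alternative. Only the stage fits, in G&N and over the 8 libraries, were also run on simulated counts, and the outcome is not given here. The other comparisons were not simulated. Totals ran from 20350427 to 61275465, and 3 counts stand for the limit of a count of 0, for counting error only. Nothing says that replicates came from separate cultures, so p values measure the spread between these libraries. Promoters are the 250 bases before the start of the canonical GENCODE transcript on GRCm39, compared by alignment (Biopython 1.88). RefSeq protein sequences were not used here.

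The members and lists were chosen with earlier results of these data known. Named genes are all of the oocyte group, 12 F-box genes of known function (1 is not reported here), the 5 called genes of smallest p outside the group (or 3 where none was called), and the 5 highest outside it.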

Additional observations from a re-analysis of the deposited data

How the results depend on the processing

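With 2 libraries a group, counts of calls depended on the fit. The median of the oocyte group kept its sign in all 8 comparisons of 2 groups under every alternative run, which does not give the direction of each gene. For the interaction this median ran from −0.0772 to 0.0197 over the other fits. The calls over G&N and G&N-L together stayed at 27 to 34 F-box genes with 1 library left out. For the late against early comparison in G&N the 20 calls (2654 among all genes) became 35 with DESeq2 (5908) and 32 with no filter on low counts (5060), and 2 to 20 with 1 library left out; in G&N-L the range was 13 to 18. For late G&N-L against G&N the 0 calls became 2 with DESeq2 (888) and 1 with no filter (317). Lac-CoA against G&N-L went from 0 to 8 with DESeq2 (1167), and Lac-CoA against G&N from 0 to 1 (456). WT against G&N gave 23 with DESeq2 (4079), 1 with DESeq2 size factors in edgeR (597), 19 with no filter (3668), 16 with at least 10 counts in every library (2971), 10 with all 14 libraries in one fit (1281) and 0 to 1 with 1 library left out, against 5 (877). Calls among all genes, in brackets, moved in the same direction where they are given. They are not given for fits with 1 library left out, so those counts cannot be read as particular to F-box genes. The median of the other F-box genes, near 0, changed sign for late against early in G&N with library totals (0.22) and with the replicate block (0.13), and for Lac-CoA against G&N with all 14 libraries in one fit (−0.0338); with 1 library left out it ran from −0.19 to 0.17 and from −0.137 to 0.0712. It also crossed 0 for early G&N-L against G&N (0.0223, with −0.0463 to 0.0268 over the other fits and −0.0763 to −0.0531 with 1 library left out), late G&N-L against G&N (−0.0373, −0.026 to 0.0455 and −0.169 to 0.181), Lac-CoA against G&N-L (−0.0858, −0.156 to 0.0178 and −0.151 to 0.0597) and the interaction (0.00458, −0.123 to 0.00155 and −0.144 to 0.301). The cause was not tested.

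Replicate numbers are shared by all groups, but nothing says what they mark, and deviations of same-numbered libraries correlated at −0.10 to 0.06. With the replicate block the F-box genes called were 18 for G&N, 19 for G&N-L, 30 over both media and 4 for WT against G&N, and 0 in each of the others. Calls among all genes are not given for these fits. For the early lactate comparison, whose correlation was −0.10, a crossed pairing, added after the data were seen, gave 0 calls, as did the numbered one.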
